A study of Mus musculus with 12 samples.

Results

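The insulin-like growth factor (IGF) genes of 10T1/2 mesenchymal progenitors were followed in bulk RNA-sequencing counts from cells on type I collagen hydrogels with or without collagen-bound aortic carboxypeptidase-like protein (ACLP). The set was taken by gene name and held 10 of the 56748 genes of the count table. These were the ligands Igf1 and Igf2, the receptors Igf1r and Igf2r, and the binding proteins Igfbp2, Igfbp3, Igfbp4, Igfbp5, Igfbp6 and Igfbp7. Of these, 7 had enough counts to be among the 16465 genes tested, while Igf2, Igfbp2 and Igfbp3 did not pass the filter on low counts.

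10T1/2 is an established line of multipotent mouse embryo fibroblasts, given as wild type, and every library came from this line. Cells were held for 1 h in suspension, in 0.5% serum by the labels and without serum by the study's methods, which give that serum level at seeding, and were then plated for 18 h on gels of 12 kPa stiffness coated with collagen at 0.05 mg/ml. The col1 group had collagen alone, the col1-ACLP group had collagen polymerized with 30 nM recombinant ACLP, a secreted matrix protein, and the col1-ACLP+SB group had the same coating with SB, which by the study's methods is SB431542, an inhibitor of the TGFβ type I receptor ALK5, at 5 µM during seeding. Each group had 4 libraries, described by the study as biological replicates, which the sample labels do not detail. No group had SB on collagen alone, so an effect of SB itself and an effect of SB on the response to ACLP cannot be told apart. All comparisons were of 1 cell line, 1 time point and 1 ACLP dose.

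IGF1 and IGF2 are secreted growth factors that act mainly through the IGF1 receptor, a tyrosine kinase that signals through IRS adaptors to PI3K and AKT, which in turn restrains FOXO transcription factors. The product of Igf2r, the cation-independent mannose 6-phosphate receptor, has no kinase: it carries IGF2 to lysosomes for degradation and sorts lysosomal enzymes. IGFBP2 to IGFBP6 bind IGFs with high affinity and are released from them by proteases such as those of the pappalysin family, whereas IGFBP7 binds IGFs weakly and is found in the extracellular matrix.

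The promoters of the 4 members that passed the test in any comparison are shown first, because these are the start regions of the genes whose levels the results turn on. The sequences are the 250 bases before the transcription start in RefSeq's promoter table, made on GRCm38.p6, and each was placed on GRCm39 by its single exact match. They are written 5′ to 3′ along the gene, and capitals mark the GC box (GGGCGG or its complement CCGCCC) and the TATA box (TATAAA).
Igf2r, chr17:12988594-12988843 (minus strand): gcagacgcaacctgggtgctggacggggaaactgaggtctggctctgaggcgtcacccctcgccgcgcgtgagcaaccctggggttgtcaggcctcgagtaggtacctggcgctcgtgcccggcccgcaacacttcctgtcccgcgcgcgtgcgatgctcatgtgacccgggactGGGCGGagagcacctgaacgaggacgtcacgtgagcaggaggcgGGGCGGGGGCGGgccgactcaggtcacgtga
Igf1r, chr7:67601755-67602004 (plus strand): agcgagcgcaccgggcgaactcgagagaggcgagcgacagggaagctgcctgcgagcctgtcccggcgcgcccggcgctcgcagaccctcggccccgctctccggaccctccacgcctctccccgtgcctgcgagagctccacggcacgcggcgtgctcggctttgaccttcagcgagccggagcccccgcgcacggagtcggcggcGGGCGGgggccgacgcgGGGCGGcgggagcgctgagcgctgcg
Igfbp7, chr5:77555893-77556142 (minus strand): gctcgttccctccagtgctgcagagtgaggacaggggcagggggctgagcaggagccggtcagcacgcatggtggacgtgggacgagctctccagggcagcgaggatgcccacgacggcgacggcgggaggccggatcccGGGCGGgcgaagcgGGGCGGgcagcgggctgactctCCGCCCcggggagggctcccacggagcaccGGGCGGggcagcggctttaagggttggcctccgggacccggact
Igfbp4, chr11:98931820-98932069 (plus strand): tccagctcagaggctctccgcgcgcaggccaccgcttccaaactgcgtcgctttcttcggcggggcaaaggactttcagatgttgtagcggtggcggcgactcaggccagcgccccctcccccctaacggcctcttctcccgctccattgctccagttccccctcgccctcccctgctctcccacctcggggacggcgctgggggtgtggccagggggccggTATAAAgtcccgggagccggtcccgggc

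The 300-base windows of the table, which run on for 50 bases past the start, were rich in CpG in all 4 genes. Igf1r held 48 CpG, more than 98.8% of the 32851 promoters in the table. Igf2r held 34 and Igfbp7 held 33, above 92.3% and 91.4% of promoters, and Igfbp4 held 27, above 84.5%. The median of all promoters was 7 CpG. Among the members that did not pass or were not tested, the window of Igf1 held 6, that of Igfbp5 held 10 and that of Igfbp6 held 8. Those of Igfbp2 held 18 and 14, and those of Igf2 held 2, 14, 24 and 7. That of Igfbp3, near 0 counts in these cells, held 37, above 94.4% of promoters.

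The GC box, read on both strands, occurred 3 times in Igf2r, of which a pair stood end to end without overlap, 2 times in Igf1r and 4 times in Igfbp7. Of all promoters in the table, 35.7% held at least 1. Among the members that were not tested, a window of Igfbp2 held 3 GC boxes and windows of Igf2 held up to 2. The Igfbp4 window held no GC box and had a TATA box at -28 relative to the start, a motif present in 13.6% of promoters and in none of the windows of Igf2r, Igf1r and Igfbp7. None of the 4 windows held CAGACA, the CAGA box bound by SMADs (21% of promoters), GGAATG, a TEAD site (14.7%), GTAAACA, a FOXO site (3.65%), or CCAAT (37.4%), on either strand. A match or its absence describes these letters in this window only.

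Total counts ran from 32264826 to 42543707 per library on col1, from 29246154 to 36322113 on col1-ACLP and from 29995224 to 52201922 on col1-ACLP+SB. Replicates differed by more than counting noise, with a square root of common dispersion of 0.153. Col1 replicate 2 stood apart on the first principal component of all tested genes, at -86.7, where the other col1 libraries lay between -11.1 and -8.97 and all ACLP libraries between 10 and 20.6. Counts of members and of the pathway lists that moved without it are therefore also given without it. The share of mitochondrial counts was 2.39 to 2.98% on col1, 2 to 2.21% on col1-ACLP and 2.1 to 2.88% on col1-ACLP+SB, and its part in the results was not tested. Of 14 mesenchymal markers, 12 were above 1 CPM (counts scaled by TMM library size) in every group, led by Col1a1, while Nt5e was lowest at 0.208 to 0.275 CPM by group mean. Their summed level was 34285 to 35500 CPM on col1, 44186 to 53098 on col1-ACLP and 40803 to 46329 on col1-ACLP+SB. In each comparison with col1, 2 of these markers, Col1a1 and Col1a2, rose and 4 fell, among them Pdgfra (log2FC -0.76 and -0.60), and the median log2FC of the 14 was -0.12 and -0.17. Of 7 chondrocyte and osteoblast markers, 3 were above 1 CPM, Acan and Ibsp were at 0, and the sum ran from 1433 to 1625 CPM on col1 and from 2889 to 4667 CPM in the ACLP groups, with Col2a1, a cartilage collagen, on top in every group. Most of this rise was Col2a1, at a mean of 911 CPM on col1, 3177 on col1-ACLP and 2451 with SB. Sox9 rose on col1-ACLP (log2FC 0.27) and did not pass with SB (0.11), and Runx2 fell on col1-ACLP (-0.15). The median log2FC of the 4 tested markers of this list was 0.06 and 0.00 in the comparisons with col1. Adipocyte markers summed to 40.6 to 46.3 CPM on col1, 28.7 to 32.2 CPM on col1-ACLP and 27.2 to 32.6 CPM with SB, and Pparg, which led them, fell by 0.63 and 0.74 on the log2 scale in the comparisons with col1. The sums of muscle, endothelial, leukocyte and epithelial markers were 0.651 to 12.8 CPM, and Myod1, Myog, Myf5, Adgre1 and Epcam were at 0 throughout. The part of these levels in the results was not tested. In bulk RNA a smaller share of cells expressing a gene and less RNA per cell cannot be told apart.

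Per transcript length, the receptors and Igfbp7 were far above the other members. Levels between genes are given as fragments per kilobase, scaled by library size (FPKM), computed from the counts with the gene lengths of the table. On col1, Igf2r had 119 ± 6.05 FPKM (mean ± SD, n = 4), higher than 98.2% of the tested genes. Igfbp7 followed with 74.5 ± 3.97 FPKM and Igf1r with 28.1 ± 1.46 FPKM, higher than 96.9% and 89.9% of tested genes. Each of these 3 genes was separated from the next on col1, with no overlap of libraries. Igfbp4 had 2.06 ± 0.614 FPKM, higher than 38.8% of tested genes, and the remaining members had at most 1.05 FPKM in any library.

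On col1-ACLP the order of the top pair was no longer separated. Igfbp7 had 98.6 ± 6.16 FPKM, between 92.0 and 106 in single libraries, and Igf2r had 94.9 ± 5.06 FPKM, between 88.1 and 100.2, so that their libraries overlapped. On col1-ACLP+SB, Igf2r at 101.3 ± 6.80 FPKM was again above Igfbp7 at 89.8 ± 3.98 FPKM, without overlap of libraries. Igf1r held the third place in all 3 groups and Igfbp4 the fourth.

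**Figure D1:**
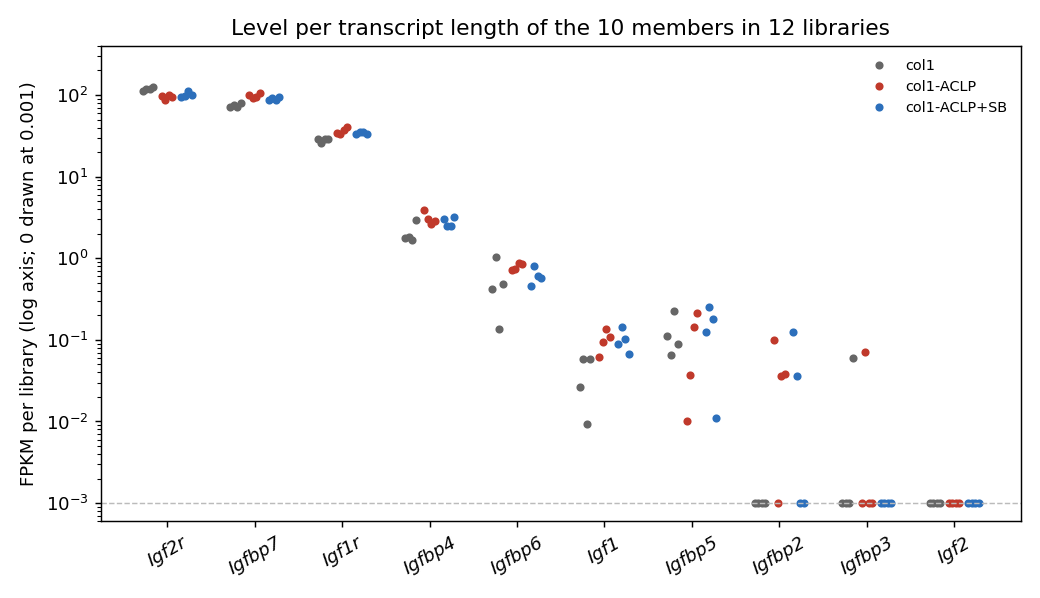
FPKM (log axis) of the 10 IGF members in each of the 12 libraries, 1 point per library and 1 colour per group, with a value of 0 drawn at 0.001. Igf2r, Igfbp7 and Igf1r lie at or above 25.9 FPKM in all libraries, Igfbp4 lies between 1.66 and 3.90 FPKM, and Igf2 lies at 0 in all 12.

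The ligands were at or near the limit of counting. Igf2, the fetal growth ligand on chromosome 7 (GRCm39 chr7:142204503-142220553, minus strand), had 0 counts in all 12 libraries. A count of 0 allows up to 3 counts, which is 0.0579 to 0.106 CPM in these libraries, and this limit covers counting error only. Igf1, the ligand induced by growth hormone in liver and made locally by mesenchymal cells (chr10:87694127-87772904, plus strand), had 10, 22, 3 and 25 counts in the col1 libraries, 20, 34, 40 and 30 in those with ACLP and 31, 42, 52 and 20 in those with ACLP and SB. On the CPM scale, Igf1 was lower in each col1 library (0.0911 to 0.583 CPM) than in any ACLP library (0.611 to 1.41 CPM), so these groups did not overlap.

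Igf1 did not pass in any comparison. The log2FC of col1-ACLP against col1 was 1.36 (SE 0.559, 95% interval 0.21 to 2.51), with an unadjusted p of 0.0228 in edgeR's quasi-likelihood test and a Benjamini-Hochberg adjusted p of 0.101. The log2FC of col1-ACLP+SB against col1 was 1.36 as well (edgeR adjusted p = 0.15). At 3 to 52 counts, even a log2FC of 1.36 did not pass, so the lack of a call does not show that Igf1 was unchanged.

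In col1-ACLP against col1, 3 of the 7 tested members rose (Igf1r, Igfbp7 and Igfbp4) and 1 fell (Igf2r), where 9.52% of all tested genes passed as higher and 8.41% as lower. Passing means an adjusted p below 0.05. The members' median log2FC was 0.40, and that of all tested genes -0.01. At the study's fold threshold of 0.58 on the log2 scale, 1 member, Igfbp4, was past it, where 2.61% of tested genes were past it as higher and 2.36% as lower. The counts of members were again 3 and 1 when col1 replicate 2 was left out. The mean levels of Igf1r and Igfbp7 differed from col1 by about the same fold, and in the direction opposite to Igf2r.

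Igf1r encodes the kinase receptor for IGF1 and IGF2 (ENSMUSG00000005533, chr7:67602575-67883416, plus strand). The col1 libraries had 487, 435, 481 and 485 CPM, the col1-ACLP libraries 583, 566, 629 and 675 CPM, and the libraries with SB 556, 586, 586 and 561 CPM. Every ACLP library, with or without SB, was above every col1 library, and col1 replicate 2 was the lowest of all 12. Igf1r rose by 29.9% on col1-ACLP, from 472 ± 24.5 to 613 ± 49.0 CPM (mean ± SD, n = 4 each), a log2FC of 0.38 (SE 0.0512, edgeR adjusted p = 4.03e-06). Leaving out col1 replicate 2 gave a log2FC of 0.34 (edgeR adjusted p = 3.2e-05).

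Igf2r, the lysosomal sorting receptor that clears IGF2 (ENSMUSG00000023830, chr17:12901293-12988551, minus strand), moved the other way. The col1 libraries had 1034, 1097, 1111 and 1171 CPM, the col1-ACLP libraries 898, 820.1, 933 and 881 CPM, and the libraries with SB 891, 905, 1031 and 945 CPM. The col1-ACLP libraries were all below the col1 libraries, and the highest col1-ACLP+SB library, at 1031 CPM, lay just under the lowest col1 library. Igf2r fell from 1103 ± 56.3 to 883 ± 47.1 CPM (n = 4 each), a log2FC of -0.32 (SE 0.0495, edgeR adjusted p = 2.57e-05), and the value was -0.32 without col1 replicate 2 as well.

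The noncoding RNA Airn, which in mouse silences Igf2r on the paternal allele, lies on the other strand and shares 28354 bases with the Igf2r gene. Its counts were 3.05 to 6.5% of those of Igf2r. Whether reads were counted by strand is not given in the sources used here, so reads from the shared stretch cannot be assigned with certainty. On col1, Airn had 58.4 ± 8.00 CPM, against a mean of 31.7 CPM with ACLP, where the libraries ran from 26.9 to 34.9 CPM, and 47.7 ± 5.88 CPM with ACLP and SB (n = 4 each). Airn fell on col1-ACLP by 0.88 on the log2 scale (SE 0.0993, edgeR adjusted p = 2.42e-07). In col1-ACLP+SB against col1, where Igf2r passed, Airn did not (log2FC -0.29, edgeR adjusted p = 0.0629). With SB it was higher than on col1-ACLP (log2FC 0.59, SE 0.0995, edgeR adjusted p = 0.00245). Adding all Airn counts to Igf2r gave a log2 ratio of mean CPM of -0.34 for col1-ACLP against col1, and -0.32 without them.

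Because Igf1r and Igf2r are counted in the same libraries, their ratio does not depend on library scaling. The number of Igf2r counts per Igf1r count was 2.12, 2.52, 2.31 and 2.42 in the col1 libraries, 1.54, 1.45, 1.48 and 1.30 in those with ACLP, and 1.60, 1.54, 1.76 and 1.68 in those with ACLP and SB. The col1 ratios were all above the ratios of both ACLP groups, while the highest col1-ACLP and the lowest col1-ACLP+SB ratios were both 1.54 to 3 digits. The group means were 2.34 ± 0.169, 1.44 ± 0.101 and 1.65 ± 0.0946 (SD, n = 4 each). This ratio was chosen after the levels were seen and was not tested.

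**Figure D2:**
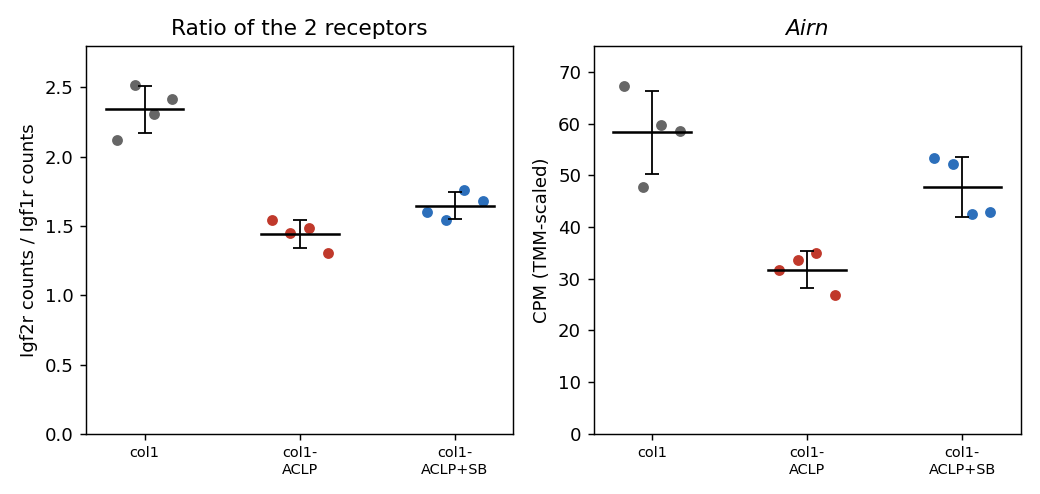
Left, the number of Igf2r counts per Igf1r count in each library; right, Airn in CPM. Points are libraries, bars are group means with SD (n = 4), and both axes start at 0. All col1 ratios are at or above 2.12 and all ratios of the ACLP groups are at or below 1.76.

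Igfbp7 encodes a secreted matrix-associated protein that binds IGFs weakly (ENSMUSG00000036256, chr5:77497087-77555888, minus strand). The col1 libraries had 87.3, 90.5, 86.0 and 96.8 CPM, the col1-ACLP libraries 121, 111, 116 and 129 CPM, and the libraries with SB 104, 111, 105 and 114 CPM. All 8 ACLP libraries were above all 4 col1 libraries. Igfbp7 rose by 32.2% on col1-ACLP, from 90.1 ± 4.81 to 119 ± 7.44 CPM, a log2FC of 0.40 (SE 0.0573, edgeR adjusted p = 8e-06), and by 0.41 without col1 replicate 2. The gene shares 85 bases with Polr2b on the other strand, which did not pass (log2FC 0.14, edgeR adjusted p = 0.185).

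Igfbp4, a soluble binding protein that generally restrains IGF access to the receptor and is cleaved by the pappalysin PAPP-A (ENSMUSG00000017493, chr11:98932070-98945218, plus strand), was measured at a far lower level. The col1 libraries had 7.86, 8.02, 7.35 and 13.1 CPM, the col1-ACLP libraries 17.2, 13.3, 11.7 and 12.5 CPM, and the libraries with SB 13.3, 11.0, 10.9 and 14.1 CPM. Col1 replicate 4 lay within the ACLP range, so the groups overlapped, while the other col1 libraries were below all ACLP libraries. Igfbp4 rose from 9.09 ± 2.71 to 13.7 ± 2.46 CPM on col1-ACLP, a log2FC of 0.59 (SE 0.165, edgeR adjusted p = 0.0132). The call rested on single libraries: without col1 replicate 3 the log2FC was 0.50 (edgeR adjusted p = 0.0559), without col1-ACLP replicate 1 it was 0.46 (edgeR adjusted p = 0.0796), and without col1 replicate 4 it was 0.82 (edgeR adjusted p = 0.000304). It was 0.53 without col1 replicate 2 (edgeR adjusted p = 0.0408), under the fold threshold.

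**Figure D3:**
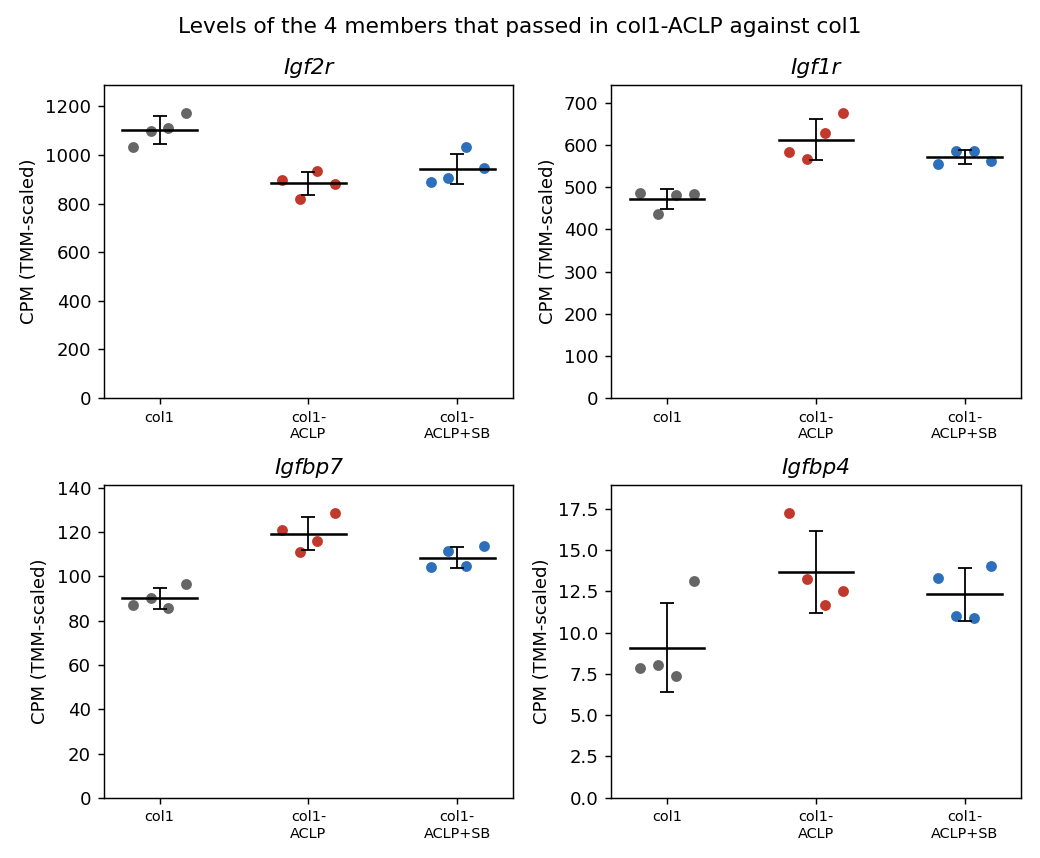
CPM of Igf2r, Igf1r, Igfbp7 and Igfbp4 in each library (points), with the group mean and SD (bars, n = 4) and axes that start at 0. For Igf2r the col1 libraries lie highest, and for Igf1r and Igfbp7 they lie lowest without overlap, whereas 1 col1 library of Igfbp4, at 13.1 CPM, lies among the ACLP libraries.

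Igfbp5 and Igfbp6 were tested at counts too low to resolve a change of moderate size. Igfbp5, a binding protein that attaches to matrix (chr1:72897091-72914043, minus strand), had 26, 15, 45 and 23 counts in the col1 libraries, 2, 8, 26 and 36 in those with ACLP, and 26, 45, 56 and 2 in those with ACLP and SB. The spread within each ACLP group was wider than any difference between group means. Its log2FC of col1-ACLP against col1 was -0.30 (95% interval -1.84 to 1.24, edgeR adjusted p = 0.855). Igfbp6, which prefers IGF2 (chr15:102052797-102057946, plus strand), had 18, 44, 5 and 23 counts in the col1 libraries, 26, 30, 29 and 27 with ACLP, and 18, 27, 35 and 19 with ACLP and SB. Its log2FC of col1-ACLP against col1 was 0.60 (95% interval -0.54 to 1.74, edgeR adjusted p = 0.538). Libraries of the groups overlapped for both genes.

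Igfbp2 and Igfbp3 were close to absent from the counts. Igfbp2 (chr1:72863662-72891633, plus strand), the neighbour of Igfbp5 on the chromosome, had 0 counts in all 4 col1 libraries, 6, 0, 2 and 2 with ACLP, and 8, 2, 0 and 0 with ACLP and SB. Igfbp3, the main carrier of IGFs in serum (chr11:7156086-7163923, minus strand), had 8 counts in col1 replicate 4, 8 in col1-ACLP replicate 2 and 0 in the other libraries. All counts above 0 in both genes were even numbers. Among counts from 1 to 10 over the whole table, 62.1% were even, against 49.8% of counts above 1000. No fold change is given for these genes.

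In col1-ACLP+SB against col1, which used the same col1 libraries, 2 of the 7 tested members rose and 1 fell, where 4.6% of tested genes passed as higher and 4.54% as lower. Igf1r rose by 21.2% to 572 ± 15.9 CPM (log2FC 0.28, SE 0.0512, edgeR adjusted p = 0.000454). Igfbp7 rose by 20.4% to 109 ± 4.81 CPM (log2FC 0.27, SE 0.0573, edgeR adjusted p = 0.00235). Igf2r fell to 942.9 ± 63.3 CPM (log2FC -0.23, SE 0.0495, edgeR adjusted p = 0.0028).

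Igfbp4 had a log2FC of 0.43 in this comparison (SE 0.165) and did not pass (edgeR adjusted p = 0.117), but without col1 replicate 4 the log2FC was 0.67 (edgeR adjusted p = 0.0047). No member was past the fold threshold, where 1.27% of tested genes were past it as higher and 1.01% as lower. The counts were again 2 and 1 without col1 replicate 2, with Igf1r at 0.24 (edgeR adjusted p = 0.00311). In both comparisons with col1, 3 members had all ACLP libraries above all col1 libraries (Igf1, Igf1r and Igfbp7) and 1 had them all below (Igf2r). Over all tested genes this held for 10.9% and 10.3% in col1-ACLP, and for 6.7% and 6.32% in col1-ACLP+SB. Igf1, at 3 to 25 counts on col1, passed the filter on low counts through the ACLP groups in which it was higher, so its place in this count is not to be read against these shares.

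**Figure D4:**
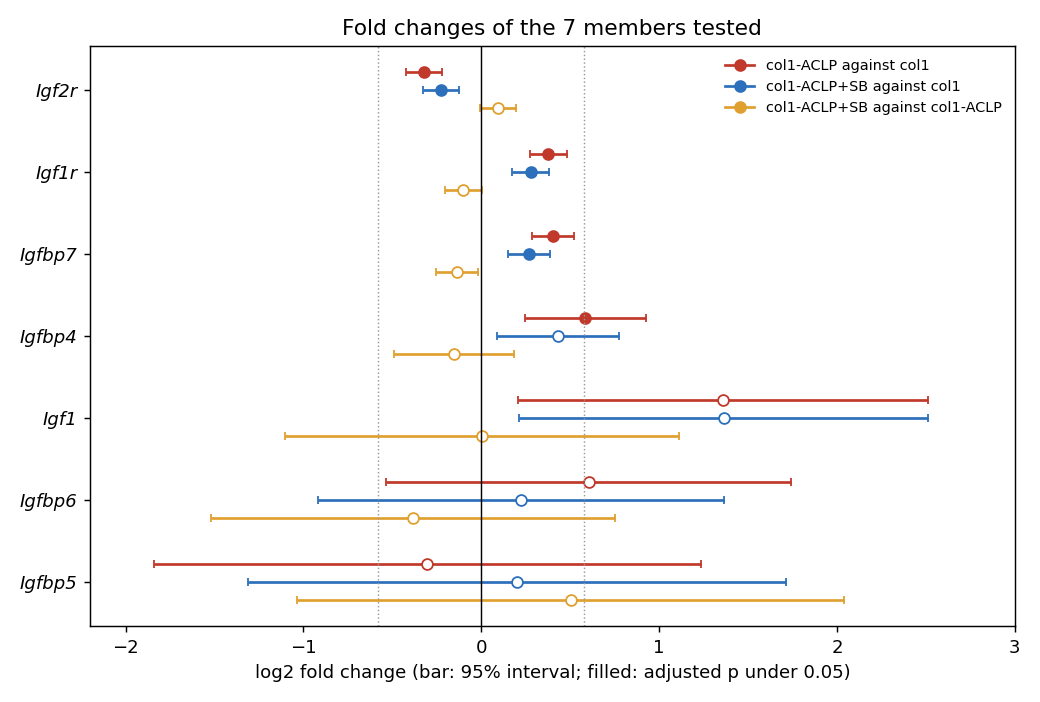
Log2 fold changes of the 7 tested members in the 3 comparisons (colours), with 95% intervals and filled points where the adjusted p is below 0.05. Dotted lines mark ±0.58. The intervals of Igf2r, Igf1r and Igfbp7 are narrow and lie away from 0 in both comparisons with col1, and those of Igf1, Igfbp6 and Igfbp5 are wide.

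The direct comparison of col1-ACLP+SB with col1-ACLP asked whether the members' levels on ACLP differed with the ALK5 inhibitor present. None of the 7 passed in edgeR's quasi-likelihood test, where 0.571% of tested genes passed as higher and 0.905% as lower, and none was past the fold threshold, where 0.085% of tested genes were past it as higher and 0.0425% as lower. The libraries of these groups overlapped for all 7 members, where 3.65% of tested genes were separated as higher and 4.52% as lower. Igfbp7 was the member with an unadjusted p below 0.05 in edgeR's test, and its log2FC was -0.14 (95% interval -0.25 to -0.02, edgeR adjusted p = 0.291). The log2FC was -0.10 for Igf1r (95% interval -0.21 to 0.01) and 0.09 for Igf2r (95% interval -0.01 to 0.20). Both of these intervals include 0, and they leave room for no difference and for a return towards the col1 level of up to these sizes. In this comparison limma-voom called no member, and DESeq2 called none of the 4 for which it gave an adjusted p, which left out Igf1, Igfbp5 and Igfbp6.

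The genes around the members were read from lists of the pathway, described by counts beside the shares of all tested genes given above. Of the 10 relatives of the members, 5 were tested and 1 fell in both comparisons with col1. This was Igf2bp2, an RNA-binding protein that binds Igf2 transcripts among others, at a mean of 142 CPM on col1 (log2FC -0.49 and -0.36, edgeR adjusted p = 1.19e-07 and 2.62e-05). Insr, the insulin receptor, which can pair with the IGF1 receptor in hybrids, had a log2FC of -0.03 (edgeR adjusted p = 0.794).

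Of 10 tested proteases of the binding proteins and their inhibitors, 3 rose and 2 fell on col1-ACLP. Pappa2, a pappalysin that cleaves IGFBP5 and IGFBP3, rose from 66.8 CPM on col1 to 116 CPM on col1-ACLP (log2FC 0.80, SE 0.0681, edgeR adjusted p = 2.04e-09). It was 92.1 CPM on col1-ACLP+SB, above col1 (log2FC 0.46, edgeR adjusted p = 2.42e-05) and below col1-ACLP (log2FC -0.33, edgeR adjusted p = 0.0099). Adam9, a membrane metalloprotease, rose by 0.32 on the log2 scale on col1-ACLP (edgeR adjusted p = 4.92e-05) and was lower with SB than on col1-ACLP (log2FC -0.27, edgeR adjusted p = 0.00612). Plau, which encodes urokinase, fell in both comparisons with col1, by 0.69 and 0.66 on the log2 scale (edgeR adjusted p = 0.00138 and 0.00359). Htra3, a secreted serine protease named after its values were seen, fell by 2.09 on col1-ACLP (SE 0.63, edgeR adjusted p = 0.0211). Its mean fell to 0.25 CPM from 1.11 CPM, so this fold change rests on few reads. With SB, Htra3 did not pass against col1 (log2FC -0.68, edgeR adjusted p = 0.602). Counts were 2 higher and 1 lower for col1-ACLP+SB against col1, and 2 lower against col1-ACLP.

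Of 6 genes of the growth hormone axis, Ghr, the growth hormone receptor, fell on col1-ACLP (log2FC -0.26, edgeR adjusted p = 0.000694), and Stat5a fell in col1-ACLP+SB against col1 (log2FC -0.25, edgeR adjusted p = 0.0488), a call kept in 1 of the 12 fits that each left out 1 library (adjusted p up to 0.179 in edgeR) and lost, among others, without col1 replicate 2. Of 14 tested receptor adaptors and their inhibitors, 4 rose and 2 fell on col1-ACLP, and 1 rose and 1 fell in col1-ACLP+SB against col1. Grb14, an adaptor that inhibits the insulin receptor family, rose from 6.28 to 15.3 CPM on col1-ACLP (log2FC 1.28, SE 0.14, edgeR adjusted p = 1.3e-07) and to 11.6 CPM with SB (log2FC 0.89, edgeR adjusted p = 6.75e-05). Irs2, a docking protein of the receptor, fell in both (log2FC -0.36 and -0.41, edgeR adjusted p = 0.000552 and 0.000204). Shc1, a docking protein that links receptors to RAS signalling, fell on col1-ACLP (log2FC -0.16, edgeR adjusted p = 0.0176), a call kept in 10 of the 12 fits with 1 library left out and lost without col1 replicate 2 (edgeR adjusted p = 0.0527). The other genes of this list that rose there, named after their values were seen, were Irs1, Gab1 and Nedd4 (log2FC 0.23, 0.18 and 0.11). When col1 replicate 2 was left out, the genes of this list that passed on col1-ACLP were 1 higher and 1 lower.

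Of 24 genes of PI3K, AKT and mTOR signalling, 6 rose and 5 fell on col1-ACLP, and 1 rose and 2 fell in col1-ACLP+SB against col1. Eif4ebp1, the translation repressor that mTOR phosphorylates, rose in both (log2FC 0.63 and 0.39, edgeR adjusted p = 9.84e-08 and 0.000204). Pik3r2, a regulatory subunit of PI3K, fell in both (log2FC -0.49 and -0.29, edgeR adjusted p = 1.82e-08 and 9.7e-05), and was higher with SB than on col1-ACLP (log2FC 0.20, edgeR adjusted p = 0.0317). This last call was kept in 6 of the 12 fits with 1 library left out (adjusted p up to 0.115 in edgeR). Pik3cb, a catalytic subunit, rose on col1-ACLP (log2FC 0.54, edgeR adjusted p = 0.000212) and was lower with SB (log2FC -0.39, edgeR adjusted p = 0.0449), the latter in 3 of the 12 fits with 1 library left out (adjusted p up to 0.181 in edgeR). Of the AKT kinases, Akt1 and Akt2 were named after their values were seen: on col1-ACLP, Akt1 rose by 0.16 on the log2 scale, whereas Akt2 fell by 0.27. Pik3r1, another regulatory subunit, fell in both comparisons with col1 (log2FC -0.26 and -0.32, edgeR adjusted p = 0.000246 and 5.05e-05). With col1 replicate 2 left out, 5 genes of this list rose and 5 fell on col1-ACLP, and 1 rose and 2 fell with SB.

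Of 14 tested FOXO factors and targets, 7 fell in each comparison with col1. Klf15, named after its values were seen, rose on col1-ACLP (log2FC 1.77, SE 0.40, edgeR adjusted p = 0.00215). Its mean rose to 2.82 CPM from 0.82 CPM, so this fold change rests on few reads. With SB, Klf15 did not pass against col1 (log2FC 1.07, edgeR adjusted p = 0.107). The median log2FC of the 14 was -0.24 on col1-ACLP and -0.21 with SB, where that of all tested genes was -0.01 and 0.00. Fbxo32, a muscle atrophy ubiquitin ligase, fell by 0.83 and 0.60 on the log2 scale (edgeR adjusted p = 3.17e-07 and 6.83e-05). Sesn1, a stress-induced inhibitor of mTOR signalling, fell by 0.65 and 0.41 (edgeR adjusted p = 7.7e-08 and 0.000148), and Txnip, a thioredoxin-binding protein, by 0.51 and 0.31. Foxo3 itself fell by 0.32 and 0.28. The other genes that fell in both, named after their values were seen, were Sesn3, Pik3ip1 and Cited2. None of the 14 passed between col1-ACLP+SB and col1-ACLP. With col1 replicate 2 left out, 8 fell on col1-ACLP and 6 with SB.

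Imprinted genes are a class that includes Igf2, Igf2r and Airn, and the list of other imprinted genes counted here held Airn but not Igf2r. Of its 11 tested genes, 4 fell on col1-ACLP and 2 in col1-ACLP+SB against col1, and without col1 replicate 2 these counts were 3 and 3. Dcn, a matrix proteoglycan, fell from 83.5 to 26.6 CPM on col1-ACLP (log2FC -1.65, edgeR adjusted p = 3.65e-13) and to 32.7 CPM with SB (log2FC -1.35, edgeR adjusted p = 2.47e-11). Plagl1, a zinc finger factor, fell by 0.91 and 0.59. The call of H19, named after its values were seen, was the one lost on col1-ACLP without col1 replicate 2. Airn is the gene of this list that was higher with SB than on col1-ACLP.

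Of 14 genes of mannose 6-phosphate sorting, the lysosomal pathway of the Igf2r product, 2 rose and 3 fell in each comparison with col1. Ctsl, which encodes the lysosomal protease cathepsin L, rose by 0.40 and 0.26 on the log2 scale (edgeR adjusted p = 1.28e-06 and 0.000964), whereas Ctsb, which encodes cathepsin B, fell by 0.24 and 0.15 (edgeR adjusted p = 0.00023 and 0.0263). The fall of Ctsb with SB was kept in 7 of the 12 fits with 1 library left out (adjusted p up to 0.0841 in edgeR). Hexa, a subunit of hexosaminidase, fell by 0.33 on col1-ACLP. M6pr, the smaller cation-dependent receptor of the same pathway, had a log2FC of 0.03 on col1-ACLP (edgeR adjusted p = 0.797). Without col1 replicate 2, 2 rose and 3 fell on col1-ACLP, and 2 rose and 1 fell with SB.

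**Figure D5:**
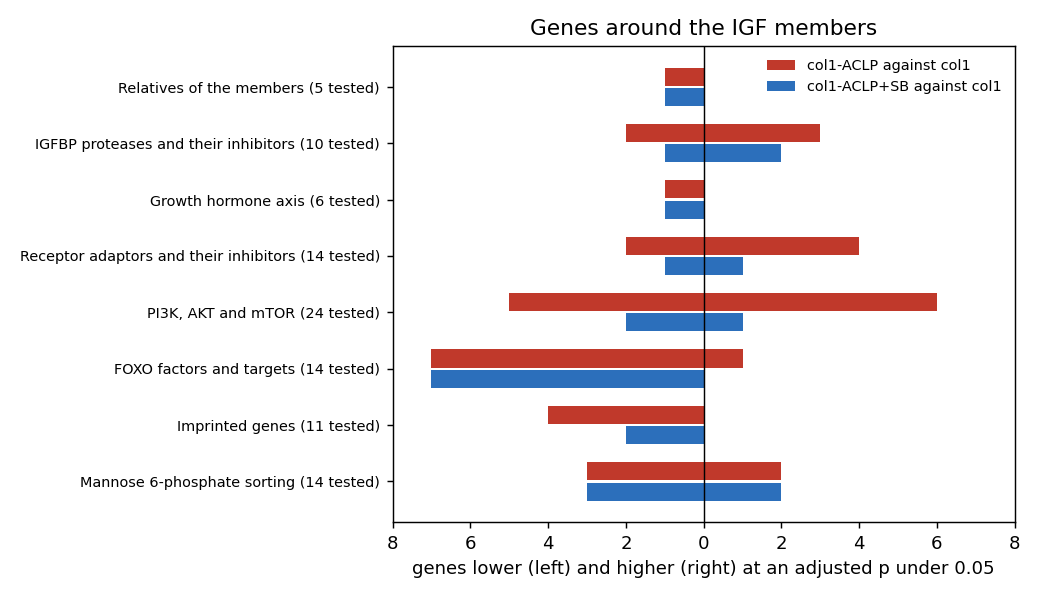
Number of genes of each list that were lower (left of 0) or higher (right) at an adjusted p below 0.05, for col1-ACLP against col1 and col1-ACLP+SB against col1, which share the col1 libraries. The FOXO list has 7 lower genes in each comparison, and the lists of PI3K, AKT and mTOR and of the adaptors have calls in both directions.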

How the data were processed

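Poly(A)-enriched RNA of 12 libraries (3 groups of 4) was sequenced as paired reads, which the study's methods map to GRCm39 with HISAT2. The submitters' processing notes name HISAT2 and mm10. The coordinates in the table are those of GRCm39: of 56017 identifiers shared with GENCODE vM39, 56016 overlap on the same strand. The authors deposited raw counts per gene, without normalization. The counting tool, strand setting and treatment of multimapping reads are not given in the sources used here, so genes with overlaps are named.

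Groups were taken from the sample labels. Genes were kept by edgeR's filterByExpr, scaled by TMM and tested with edgeR's quasi-likelihood test (4.0.16, R 4.3.3) with group as the term over all 12 libraries, with Benjamini-Hochberg adjustment over the 16465 genes. The study used DESeq2, which was run as an alternative (1.42.0), as was limma-voom (3.58.1). The fits were tested on simulated data. CPM used TMM library sizes. Replicate numbers did not pair libraries (correlations of deviations -0.0372 to 0.036), and libraries of 1 group were not copies (chi-square per degree of freedom 7.49 to 20.1). Where replicates are not independent cultures, p-values measure only the spread between these samples. All 10 members were named. From each other list, up to 3 genes with the smallest adjusted p per comparison were named, and likeness was given for members past the fold threshold. Some genes of these lists are counted but not reported by name here. The members and lists were chosen with earlier results of these data known. Alternatives were scaling, filters, tool, replicate block, a threshold test and leaving out each library.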

Additional observations from a re-analysis of the deposited data

Results flagged for a closer look

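In groups of 4 libraries, a value was singled out when its gap to the nearest other library was a larger share of the group's range than Dixon's 95% critical value, which chance gives in about 5% of groups. Of 25 groups of member values examined, 4 held such a value. Igf1r in col1 replicate 2, the library that stood apart on the first principal component, was low at 435 CPM, with a gap of 0.877 of the range, and the log2FC of Igf1r without it is given above. Igfbp4 in col1 replicate 4 was high at 13.1 CPM (gap 0.883), and without it Igfbp4 passed in col1-ACLP+SB against col1 as well as on col1-ACLP. Igfbp3 had 0.186 CPM in col1 replicate 4 and 0.221 CPM in col1-ACLP replicate 2, 8 counts each, with 0 in the other libraries of those groups. A group with counts in 1 library and 0 in the rest always meets this rule, so the share of 5% does not apply to the Igfbp3 libraries. What set these libraries apart was not tested.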

How the results depend on the processing

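Of 480 values of the members under 23 alternatives, 452 kept their direction and side of the threshold. Igf1r, Igf2r and Igfbp7 passed in both comparisons with col1 under 21 of 22 alternative fits each, the exception being edgeR's test against a fold of 0.58 (glmTreat), and none of the 3 was past 0.58 when that was required beside the adjusted p. The glmTreat test left 0 higher and 0 lower members in both comparisons, and requiring a log2FC past 0.58 left 1 higher and 0 lower on col1-ACLP and 0 and 0 on col1-ACLP+SB. Over the libraries left out, 2 to 3 members were higher and 1 was lower in each comparison with col1, and none passed between the ACLP groups. Igfbp4 ranged from 0.46 to 0.82 on col1-ACLP and from 0.34 to 0.67 on col1-ACLP+SB, where it passed without col1 replicate 4 and also without the filter (adjusted p = 0.0369 in edgeR). Directions of members that did not pass turned: Igf1 between the ACLP groups (-0.21 to 0.18, and -0.0022 without the filter), Igfbp5 on col1-ACLP (-0.96 to 0.16) and on col1-ACLP+SB (-0.21 to 0.66, and -0.075 with limma-voom), and Igfbp6 on col1-ACLP+SB (-0.086 to 0.80), and the cause was not tested. With the replicate number as a block the members' counts were 3 and 1, 2 and 1, and 0 and 0. Without TMM scaling, 38.3% of the genes that passed on col1-ACLP were higher, against 53.1%, 41.8% against 50.3% on col1-ACLP+SB and 59% against 38.7% between the ACLP groups, while the direction of Igf1r, Igf2r, Igfbp7 and Igfbp4 was the same. Over all genes, glmTreat left 144 higher and 86 lower on col1-ACLP, against 1568 and 1385 in the edgeR test, 54 and 27 on col1-ACLP+SB, against 757 and 747, and 0 and 0 between the ACLP groups, against 94 and 149. Between the ACLP groups, where 2111 genes had an unadjusted p below 0.05, DESeq2 gave 221 and 323, no filter 180 and 248, library size alone 157 and 109, the replicate block 61 and 116, and leaving out 1 library 32 to 116 and 66 to 172, with 32 and 66 without col1-ACLP replicate 4. Of 987 values of named list genes, 886 kept their call, the others lost it and 0 turned in direction. Depth limited Igf1, Igf2, Igfbp2, Igfbp3, Igfbp5 and Igfbp6, with at most 56 counts in a library.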

Other observations

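The genes whose levels were most like those of Igfbp4, the member past the fold threshold, were looked for over all tested genes by Pearson's r of log2 CPM over the 12 libraries, which share groups and depth, so r is a description. They were Nipal1 (r = 0.912, mean 0.554 CPM), Faf1 (r = 0.906, mean 46.5 CPM) and Rgs19 (r = 0.893, mean 23.3 CPM). Without col1 replicate 2 the values were 0.904, 0.896 and 0.870, and these genes then ranked 3, 4 and 9 in likeness, so that other genes stood closer.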
